A study of Mus musculus with 6 samples.

Results

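The genes described here are 32 genes of glycolysis and of the response to low oxygen, measured in granulocyte-monocyte progenitors (GMPs), the bone marrow cells that give rise to neutrophils and monocytes. They were found by gene symbol in a table of 24205 genes. Of the 32 symbols, 31 had a row. The peptide hormone gene Adm had none, and its expression was not analysed here. GMPs were sorted from C57BL/6 mice, with no genetic change labelled, that had undergone hindlimb ischemia, in which surgery interrupts the blood supply of a hind leg, or a sham operation. Each of these groups held 3 libraries of bulk RNA sequencing, made from total RNA of the sorted cells, and the groups differed in no other label. The interval after surgery, the age and sex of the mice, the marrow site and the sort gate are not stated in the labels. Whether replicates are different animals is not labelled either, and a p-value here reflects no more than the variation among these samples.

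Glycolysis splits glucose into pyruvate and yields ATP without oxygen, and lactate dehydrogenase then turns pyruvate into lactate. When oxygen is scarce, the transcription factor HIF-1 is no longer hydroxylated by the EGLN prolyl hydroxylases and escapes degradation, after which it binds short promoter elements and raises the transcription of glucose transporters, glycolytic enzymes, Vegfa and genes of mitochondrial clearance. Bone marrow is a tissue of low oxygen, and blood progenitors and neutrophils are known for their reliance on glycolysis.

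Expression was given as TPM, a unit that corrects for gene length and scales each library to the same total. Levels of different genes can be set side by side only as far as the lengths behind TPM fit. As recovered here, the length of Eno1 was 5379 bases, against 2027 in its longest transcript. For Hk1 it was 8532 against 4278, and for Egln3 both were 2662. The levels and isozyme shares below carry this limit. The libraries held about 41429988 to 53209950 recovered reads and correlated across genes with r of 0.973 to 0.993. The GMP label matched the markers of that cell. Mpo stood at 8448 to 12820 TPM and Elane at 9607 to 12370 TPM, and 12 of 12 GMP markers passed the filter of at least 1 TPM in at least 3 libraries. Markers of some other cells were lower after hindlimb ischemia, with no overlap of the sums. The 12 erythroid and megakaryocyte markers summed to 88.6 to 165 TPM after hindlimb ischemia and 222 to 262 TPM in sham, and of them Alas2 stayed below 1 TPM in every library. The 10 lymphoid markers summed to 294 to 404 TPM after hindlimb ischemia and 448 to 521 TPM in sham, with Cd3d, Cd3e, Ms4a1 and Pax5 below 1 TPM. The 14 immediate early and heat shock genes, which respond to cell handling, summed to 1132 to 1311 TPM after hindlimb ischemia and 1686 to 1963 TPM in sham, with Atf3 and Fosb below 1 TPM. None of these markers was at 0 in every library. The part of these differences in the values below was not tested, and in bulk RNA fewer cells of a type and less RNA per cell cannot be told apart. The sums of mature neutrophil, macrophage and stromal markers overlapped between the groups. At an unadjusted p under 0.05 by limma-trend, 6 of 10 erythroid and megakaryocyte and 3 of 5 lymphoid markers tested were lower. So were 10 of 12 immediate early and heat shock genes tested. By the same test, 1 of 11 neutrophil, 2 of 6 macrophage, 0 of 3 stromal and 0 of 12 GMP markers tested were lower. On these lists 0 were higher, and 2.95% of all genes tested were lower at that p.

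The DNA element that HIF-1 is known to bind has the core ACGTG or GCGTG, and promoters of the set were searched for it on both strands in RefSeq windows of 300 bases (build GRCm38.p6), from 250 bases before to 50 after each start. Windows were found for 28 of the 32 genes, Adm included, 38 windows in all. A core match was present in 31 of these 38 windows (81.6%), and in 28 of the 35 windows (80%) of the tested genes of the set. It was present in 62.3% of the windows of all genes tested and 43.8% of all 32851 promoter windows. The ACGTG form alone was in 60.5% of the windows of the set (60% for its tested genes), 26.3% of those of all genes tested and 19.6% of all promoters. The palindrome CACGTG, which holds the ACGTG core on both strands, was in 10.5% of the windows of the set (11.4% for its tested genes), 10.4% of those of all genes tested and 7.15% of all promoters. Gpi1 and Tpi1 had no match in their window, and Ldha had the most, 7. Where a gene has more than 1 start, the count is that of its window with the most matches. Ldha and Hk1 have 2 starts each, and the window printed below for each is the one with that count. The promoters of 4 genes are printed, chosen as the most abundant with a match among the 15 tested genes picked by the naming rule in the methods, so that the elements can be seen beside the expression values. They are those of Ldha (chr7:46845554-46845853, plus strand), Pfkl (chr10:78009758-78010057, minus strand), Higd1a (chr9:121857747-121858046, minus strand) and Hk1 (chr10:62340372-62340671, minus strand). Each reads 5′ to 3′ on the strand of its gene, and capitals mark the core or its reverse complement.
Ldha: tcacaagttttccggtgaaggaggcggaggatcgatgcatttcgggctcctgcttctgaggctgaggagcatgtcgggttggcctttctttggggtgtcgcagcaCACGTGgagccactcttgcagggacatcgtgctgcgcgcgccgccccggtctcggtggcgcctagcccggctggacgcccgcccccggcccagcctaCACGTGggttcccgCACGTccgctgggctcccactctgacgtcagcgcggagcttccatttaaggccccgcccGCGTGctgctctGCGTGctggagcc
Pfkl: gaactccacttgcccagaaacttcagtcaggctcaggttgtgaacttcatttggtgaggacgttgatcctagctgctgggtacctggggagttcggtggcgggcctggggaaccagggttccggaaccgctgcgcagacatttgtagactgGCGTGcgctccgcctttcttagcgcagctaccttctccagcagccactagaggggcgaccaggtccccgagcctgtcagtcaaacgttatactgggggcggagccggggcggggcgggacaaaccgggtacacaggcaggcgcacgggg
Higd1a: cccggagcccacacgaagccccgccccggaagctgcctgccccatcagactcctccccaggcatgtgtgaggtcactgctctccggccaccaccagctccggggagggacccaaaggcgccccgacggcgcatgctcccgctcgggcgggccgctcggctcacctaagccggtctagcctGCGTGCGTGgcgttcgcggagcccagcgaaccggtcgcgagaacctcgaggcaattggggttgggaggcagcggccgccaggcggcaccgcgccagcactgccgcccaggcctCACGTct
Hk1: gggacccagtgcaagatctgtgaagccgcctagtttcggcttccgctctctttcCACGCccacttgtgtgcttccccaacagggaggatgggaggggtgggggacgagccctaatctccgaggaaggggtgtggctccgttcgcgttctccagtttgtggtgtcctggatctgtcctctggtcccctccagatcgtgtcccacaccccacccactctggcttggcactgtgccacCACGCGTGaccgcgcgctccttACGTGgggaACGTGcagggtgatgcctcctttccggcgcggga
Ldha carried 7 matches in 5 runs of capitals, 2 of the runs being the palindrome CACGTG. Hk1 carried 5 matches, Higd1a 3 and Pfkl 1. These matches describe the letters of the windows, and binding was not measured.

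The levels of the 31 genes spanned a wide range. By the TPM given to each gene itself, without its near-identical copies described below, enzymes of the lower, energy-yielding steps had the highest values. Pgam1, the phosphoglycerate mutase, stood at 943 to 1230 TPM over the 6 libraries, and Pkm, the pyruvate kinase that makes pyruvate, at 778 to 1260 TPM. Ldha, Gapdh, Aldoa, Tpi1, Eno1, Gpi1 and Pgk1 followed, between 217 and 888 TPM. Lower levels were measured for Pfkl at 48.1 to 96.7 TPM, Hk1 at 24.8 to 47.0 TPM and the glucose transporter Slc2a1 at 10.2 to 16.01 TPM, while Hk3, a hexokinase outside the set, averaged 224 TPM after hindlimb ischemia and 274 TPM in sham. A further 3 genes did not reach 1 TPM in 3 libraries and were not tested. Bhlhe40, a transcriptional repressor, had 0.97, 0.92 and 0.48 TPM after hindlimb ischemia and 1.23, 0.65 and 1.103 TPM in sham. Ankrd37, an ankyrin repeat gene known as a HIF target, had 0.25, 0.53 and 0.29 TPM after hindlimb ischemia and 0.13, 1.05 and 1.11 TPM in sham. P4ha2, a collagen prolyl hydroxylase, had at most 0.11 TPM in any library and was at 0 in sham replicate 1.

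**Figure D1:**
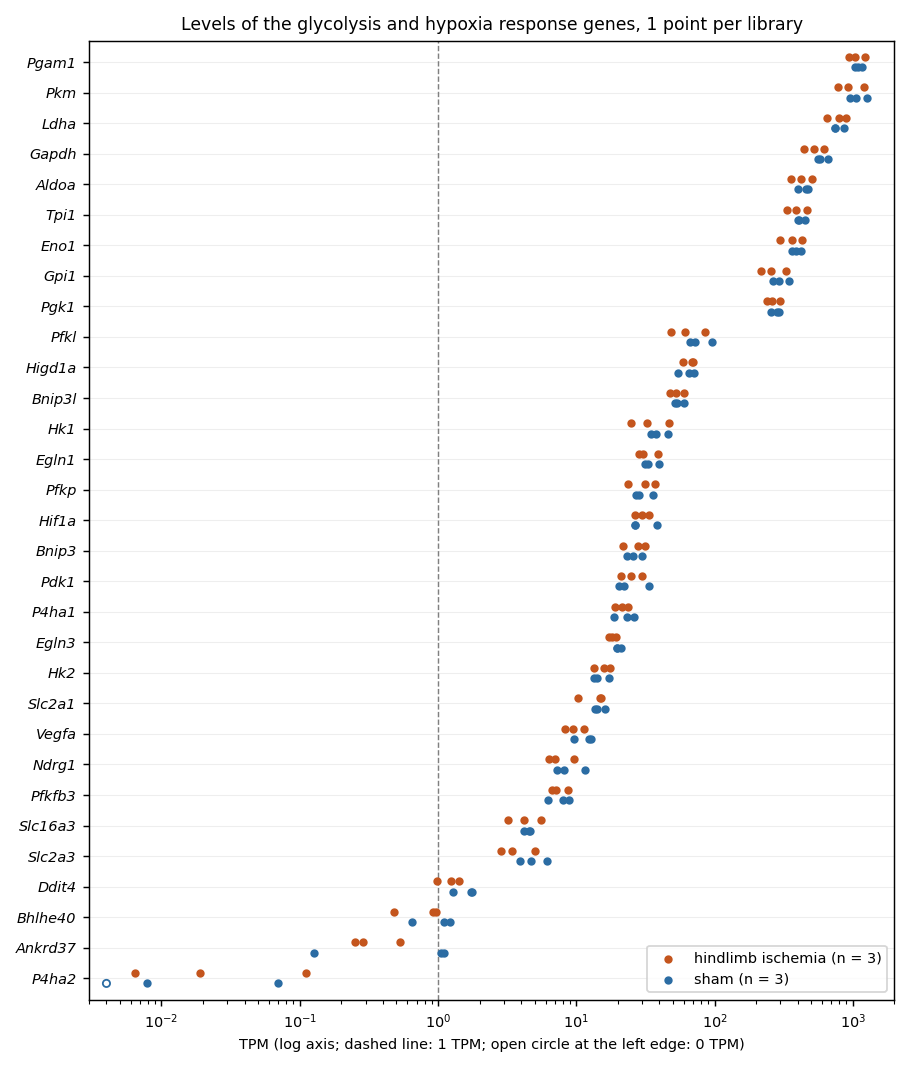
TPM of the 31 genes with a row (log axis), 1 point per library, hindlimb ischemia (orange) above sham (blue) in each line, sorted by mean level. Pgam1 and Pkm are at the top at 778 to 1260 TPM, the 3 genes at the bottom did not reach the dashed line at 1 TPM in 3 libraries, and the points of the groups overlap in each tested gene except Egln3.

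The comparison of hindlimb ischemia with sham asks whether ischemia in a limb alters this program in GMPs of the marrow. None of the 28 tested genes passed an adjusted p of 0.05 by limma-trend on log2(TPM + 1), with Benjamini-Hochberg adjustment over 13787 genes, where 0 genes passed (0%). At an unadjusted p under 0.05 the set again gave 0 of 28, beside 537 of all genes tested (3.89%). Limma-voom on recovered reads also gave 0 of 28 at either threshold, beside 0 of all genes at the adjusted threshold and 766 (5.56%) at the unadjusted. The lowest unadjusted p of the set was 0.168, for Slc2a3, and the adjusted p of the 28 genes ran from 0.874 to 0.998. The authors' deposited table gave adjusted p-values of 0.974 to 0.997 for the 30 genes of the set that have one.

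Log2 fold changes, hindlimb ischemia over sham, ran from -0.31 (Slc2a3) to 0.06 (Hk2), with standard errors of 0.13 to 0.22. A p that misses the threshold does not show that the levels did not differ, but the intervals bound the difference. All 95% intervals of the 28 genes lay between -0.78 and 0.47 on the log2 scale, that is between 0.583-fold and 1.39-fold on the scale of TPM + 1. For genes at a few TPM the same bound is a larger fold of the TPM itself. The mean was lower after hindlimb ischemia in 24 of the 28 genes (85.7%, beside 69.1% of all genes tested), in 12 of 28 after division by median-of-ratios size factors, and in 7 of 28 after a correction for GC content and transcript length. The share of all genes that was lower after either correction is not given here, only the medians. The median log2 fold change of the set was -0.08, beside -0.09 over all genes tested. Size factors put the set at 0.03 and all genes at 0.01, a shift of all genes by more than 0.1, and the GC and length correction put the set at 0.04 and all genes at 0.00. The median of the set thus lay close to that of all genes on each of these scales. Most genes of the set were nevertheless higher after the GC and length correction.

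**Figure D2:**
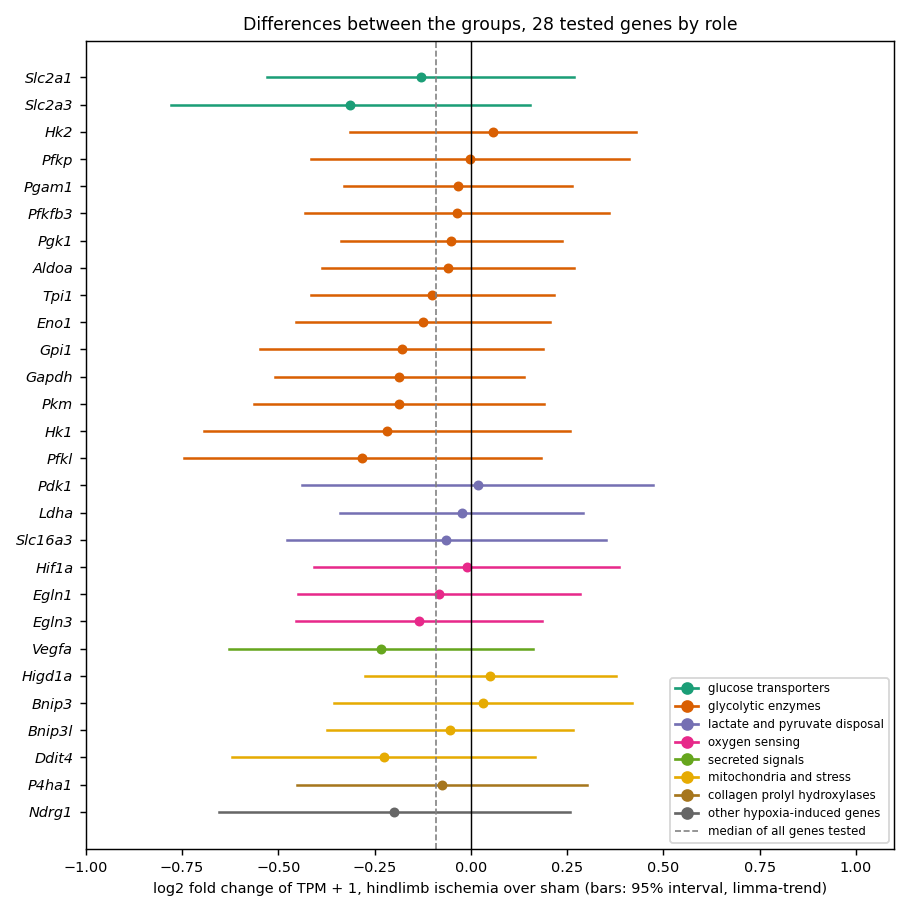
Log2 fold change of TPM + 1, hindlimb ischemia over sham, with its 95% interval from limma-trend, for the 28 tested genes, coloured by role. The point estimates lie between -0.31 and 0.06, each interval includes 0, and the dashed line marks the median of all genes tested at -0.09.

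Among the glucose transporters, which carry glucose across the plasma membrane, Slc2a1 (GLUT1) was the more abundant. It had 15.0, 15.1 and 10.2 TPM in hindlimb ischemia replicates 1, 2 and 3, and 16.01, 13.7 and 14.0 TPM in sham replicates 1, 2 and 3. Hindlimb ischemia replicate 3 lay below all others, and the log2 fold change was -0.13 (SE 0.18). Slc2a3 (GLUT3, chr6:122727809-122801640) had 5.05, 3.41 and 2.87 TPM after hindlimb ischemia and 6.12, 3.89 and 4.69 TPM in sham, from 499 to 750 reads per library. The groups overlapped through hindlimb ischemia replicate 1. Its log2 fold change of -0.31 (SE 0.21, 95% interval -0.78 to 0.15) was the lowest of the set, with an adjusted p of 0.874.

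Hexokinases trap glucose in the cell as a phosphate ester. Hk1 had 47.0, 32.4 and 24.8 TPM after hindlimb ischemia and 46.4, 34.7 and 37.5 TPM in sham. The first replicates of both groups were nearly equal, and the spread within the hindlimb ischemia group exceeded the difference of the means (log2 fold change -0.22, SE 0.22). Hk2 (chr6:82725025-82774454), the hexokinase known as HIF-inducible, had 17.5, 15.9 and 13.5 TPM after hindlimb ischemia and 17.4, 13.5 and 14.1 TPM in sham. Its values interleaved between the groups, with a log2 fold change of 0.06 (SE 0.17, 95% interval -0.31 to 0.43), the highest of the set. With the GC and length correction Hk2 was the 1 gene of the set at an unadjusted p under 0.05, beside 6.98% of all genes, with a log2 fold change of 0.25 (SE 0.08) and an adjusted p of 0.60.

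Phosphofructokinase makes the committed step of glycolysis, and its liver and platelet types are in the set. Pfkl had 85.5, 61.6 and 48.1 TPM after hindlimb ischemia and 96.7, 66.1 and 72.0 TPM in sham. Hindlimb ischemia replicates 2 and 3 lay below all sham libraries and replicate 1 above all but sham replicate 1. The log2 fold change was -0.28 (SE 0.21, 95% interval -0.75 to 0.18). Pfkp had 37.2, 31.4 and 23.8 TPM after hindlimb ischemia and 36.1, 27.2 and 28.6 TPM in sham, with the hindlimb ischemia group holding both the highest and the lowest library. Pfkp had a log2 fold change of -0.00 (SE 0.19), and its direction turned to 0.11 with size factors and to 0.14 with the GC and length correction. Pfkfb3, which makes the allosteric activator of phosphofructokinase, ranged from 6.64 to 8.71 TPM after hindlimb ischemia and from 6.28 to 8.90 TPM in sham.

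The remaining enzymes carry the sugar phosphates down to pyruvate. Gpi1, the glucose phosphate isomerase, had 328, 256 and 217 TPM after hindlimb ischemia and 344, 264 and 292 TPM in sham. Aldoa, the aldolase, had 506, 425 and 357 TPM after hindlimb ischemia and 460, 400 and 471 TPM in sham. Gapdh, the dehydrogenase that makes NADH, had 618, 528 and 443 TPM after hindlimb ischemia and 658, 557 and 580 TPM in sham. In each, hindlimb ischemia replicate 1 was high and replicate 3 was the lowest library of all. Pkm followed the same order, with 1204, 926 and 778 TPM after hindlimb ischemia and 1260, 955 and 1062 TPM in sham. Tpi1, the triose phosphate isomerase, ranged from 332 to 464 TPM after hindlimb ischemia and from 401 to 451 TPM in sham, and Eno1, the enolase, from 299 to 431 TPM after hindlimb ischemia and from 365 to 424 TPM in sham. Pgk1, the first ATP-yielding enzyme, ranged from 241 to 299 TPM after hindlimb ischemia and from 256 to 291 TPM in sham. The range after hindlimb ischemia held the whole sham range in Tpi1, Eno1 and Pgk1. Of the 13 glycolytic enzymes tested, 12 had a lower mean log2 level after hindlimb ischemia, beside 69.1% of all genes tested. Their median log2 fold change was -0.10, beside -0.09 over all genes, and 0 passed either threshold. With size factors 6 of the 13 were lower, and with the GC and length correction 2 of the 13, beside medians over all genes of 0.01 and 0.00.

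At the fate of pyruvate, Ldha makes lactate and regenerates NAD, Slc16a3 (MCT4) exports lactate, and Pdk1 keeps pyruvate out of mitochondria by inhibiting pyruvate dehydrogenase. Ldha, whose promoter held the most core matches, had 888, 788 and 651 TPM after hindlimb ischemia and 865, 739 and 750 TPM in sham. Its highest and its lowest library were both from the hindlimb ischemia group. The log2 fold change was -0.02 (SE 0.14, 95% interval -0.34 to 0.29), and it was 0.09 both with size factors and with the GC and length correction. Slc16a3 had 3.23 to 5.58 TPM after hindlimb ischemia and 4.21 to 4.66 TPM in sham. Pdk1 had 21.2 to 29.99 TPM after hindlimb ischemia and 20.5 to 33.8 TPM in sham.

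Oxygen sensing itself was measured through the HIF-1 alpha subunit and the hydroxylases that mark it for degradation. Hif1a had 33.4, 30.1 and 26.4 TPM after hindlimb ischemia and 38.7, 26.6 and 26.5 TPM in sham. Sham replicate 1 was the highest library and the others lay between 26.4 and 33.4 TPM. The log2 fold change of Hif1a was -0.01 (SE 0.18, 95% interval -0.41 to 0.39), and 0.10 with size factors. HIF-1 is controlled mainly through protein stability, which RNA levels do not show. Egln1 (PHD2), the main HIF hydroxylase, had 39.2, 30.6 and 28.6 TPM after hindlimb ischemia and 39.6, 32.9 and 31.4 TPM in sham, a log2 fold change of -0.08 (SE 0.17) that was 0.03 with size factors and 0.13 with the GC and length correction. Egln3 (PHD3, chr12:54178981-54203860), itself known as a HIF target, had 18.0, 19.5 and 17.3 TPM after hindlimb ischemia and 19.8, 20.9 and 19.7 TPM in sham, from 816 to 1141 reads per library. The groups did not overlap, but lay close, with 19.5 TPM in the highest hindlimb ischemia library and 19.7 TPM in the lowest sham library. Egln3 was the 1 gene of 28 with this separation, beside 8.33% of all genes tested (6.68% lower and 1.65% higher). The log2 fold change of Egln3 was -0.14 (SE 0.15) with an adjusted p of 0.874, and 0.02 (SE 0.12) with the GC and length correction.

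Among the genes that HIF-1 is known to induce outside glycolysis, Vegfa encodes the growth factor that drives vessel growth. It had 11.5, 9.50 and 8.25 TPM after hindlimb ischemia and 12.8, 9.65 and 12.4 TPM in sham. Sham replicate 2 lay within the hindlimb ischemia range, and the log2 fold change was -0.23 (SE 0.18, 95% interval -0.63 to 0.16). Bnip3 and Bnip3l (NIX) encode receptors that direct mitochondria to autophagy. Bnip3 had 21.6, 28.01 and 31.4 TPM after hindlimb ischemia and 29.8, 25.8 and 23.2 TPM in sham, a log2 fold change of 0.03 (SE 0.18). Bnip3l had 47.3, 52.8 and 60.5 TPM after hindlimb ischemia and 60.5, 52.1 and 53.7 TPM in sham, a log2 fold change of -0.05 (SE 0.15) that was 0.06 with size factors. In both genes the order of the hindlimb ischemia libraries was opposite to that of the glycolytic enzymes, with replicate 1 lowest and replicate 3 highest. Higd1a, a hypoxia-inducible protein of the respiratory chain, had 59.1, 69.9 and 68.8 TPM after hindlimb ischemia and 54.6, 71.5 and 65.5 TPM in sham. The first replicate was the lowest of its group in both, and the log2 fold change was 0.05 (SE 0.15).

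The other induced genes showed no separation of the groups. P4ha1, the collagen prolyl hydroxylase that GMPs expressed, had 23.9, 21.4 and 19.1 TPM after hindlimb ischemia and 26.3, 18.6 and 23.4 TPM in sham, a log2 fold change of -0.08 (SE 0.17) that was 0.04 with size factors. Ndrg1, a stress-induced gene of the NDRG family, ranged from 6.40 to 9.59 TPM after hindlimb ischemia and from 7.21 to 11.6 TPM in sham. Ddit4 (REDD1), an inhibitor of mTORC1, ranged from 0.98 to 1.43 TPM after hindlimb ischemia and from 1.29 to 1.77 TPM in sham, and was the tested gene with the fewest recovered reads, 40 to 61 per library up to a common factor.

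Because TPM is per length, the share of each isozyme in its family could be followed in each library, and 9 families were described in this way. The size of a share depends on the lengths used. Fitted lengths were 8790 bases for Pfkl, against 3730 in its longest transcript, and 9395 for Pfkp, against 8681. In every family but the HIF hydroxylases the leading isozyme was the same in all 6 libraries. Hk3, a hexokinase of myeloid cells, held 81.7% ± 0.95 of hexokinase TPM after hindlimb ischemia and 83.2% ± 1.11 in sham (SD, n = 3 each), whereas Hk1 held 12.5% after hindlimb ischemia and 12.1% in sham. Lactate dehydrogenase was 94.0% Ldha after hindlimb ischemia and 93.2% in sham, with Ldhb as the rest. Slc16a1 (MCT1) made up 95.4% of the monocarboxylate transporter pair after hindlimb ischemia and 94.6% in sham, so that Slc16a3 was the minor form. Pdk3 held 68.6% of the pyruvate dehydrogenase kinases after hindlimb ischemia and 67.7% in sham, above Pdk1 with 27.0% after hindlimb ischemia and 26.0% in sham. The HIF hydroxylases were more even, with Egln2 at 39.1%, Egln1 at 38.9% and Egln3 at 22.0% after hindlimb ischemia, and Egln2 at 40.9%, Egln1 at 37.2% and Egln3 at 21.8% in sham. P4ha1 made up 99.8% of its pair after hindlimb ischemia and 99.9% in sham.

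The share of Pfkp among the phosphofructokinases was the 1 share whose groups did not overlap. It was 28.2%, 31.0% and 30.3% after hindlimb ischemia and 25.1%, 26.2% and 26.2% in sham, a mean of 29.8% ± 1.46 after hindlimb ischemia and 25.8% ± 0.64 in sham (SD, n = 3 each), or 4.01 points higher after hindlimb ischemia. Pfkl held 62.3% after hindlimb ischemia and 65.7% in sham, and Pfkm held 7.92% after hindlimb ischemia and 8.52% in sham. With 3 libraries against 3 an exact permutation test cannot go below p = 0.1, and this share was singled out from 9 families after its values were seen. The transcript of Pfkl has a GC content of 57.1% and that of Pfkp 48.0%, and with the GC and length correction the log2 fold changes were -0.06 for Pfkl and 0.14 for Pfkp. Pfkp also shares 748 transcript bases with the overlapping gene Pitrm1, and whether reads were counted by strand is not given in the sources used here.

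**Figure D3:**
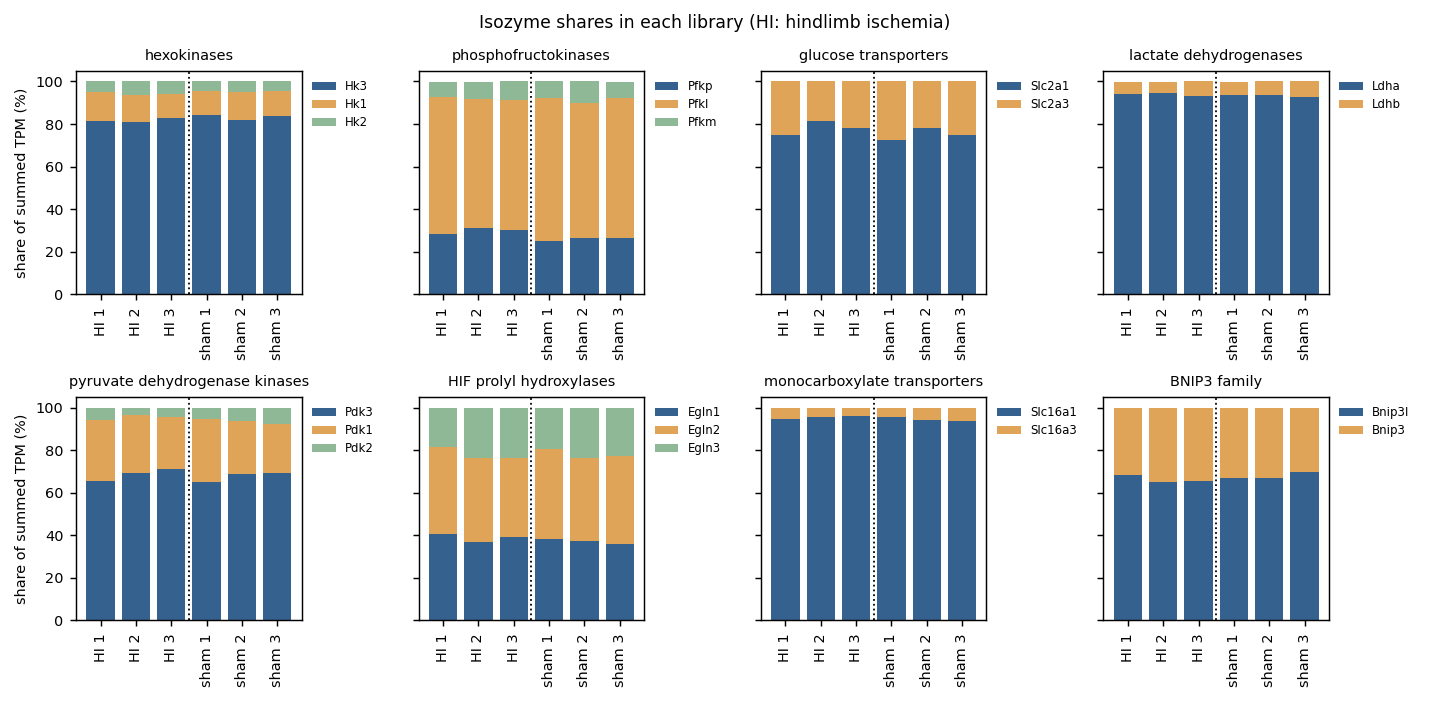
Share of each isozyme in the summed TPM of its family (percent), 1 stacked bar per library, hindlimb ischemia left of the dotted line and sham right of it, for 8 of the 9 families. Hk3, Ldha and Slc16a1 dominate their families in both groups, and the Pfkp share is 28.2% to 31.0% after hindlimb ischemia and 25.1% to 26.2% in sham.

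The libraries within a group differed, and most genes of the set shared an order across genes. Within the hindlimb ischemia group, replicate 1 was the highest and replicate 3 the lowest in 23 of the 28 tested genes (82.1%) and in 13 of the 13 glycolytic enzymes, beside 49.5% of all genes tested. Sham replicate 1 was the highest sham library in 23 of 28 genes, beside 67.7% of all genes. The 13 glycolytic enzymes summed to 5276, 4344 and 3727 TPM after hindlimb ischemia and 5259, 4379 and 4729 TPM in sham, or 0.528%, 0.434% and 0.373% of the library after hindlimb ischemia and 0.526%, 0.438% and 0.473% in sham. The 5 exceptions to the order within the hindlimb ischemia group were Slc2a1, Egln3, Bnip3, Bnip3l and Higd1a, whose values are given above.

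The libraries also differed in other measures. From hindlimb ischemia replicate 1 to replicate 3 the size factors fell and the mitochondrial share rose. In sham, the size factor was highest in replicate 1, and the mitochondrial share was lowest in replicate 3. The median-of-ratios size factors were 1.06, 0.968 and 0.886 for hindlimb ischemia replicates 1, 2 and 3 and 1.17, 0.984 and 1.01 for sham replicates 1, 2 and 3. Mitochondrially encoded genes took 3.76%, 6.35% and 7.50% of TPM after hindlimb ischemia and 4.77%, 5.51% and 4.40% in sham. With size factors the order of the hindlimb ischemia libraries was seen in 20 of the 28 genes (71.4%, beside 29.0% of all genes), and with the GC and length correction in 13 of 28 (46.4%, beside 25.1%). The median within-group SD of the set was 0.20 on the log2 scale as deposited, 0.13 with size factors and 0.09 with the GC and length correction, beside 0.21, 0.17 and 0.13 over all genes. The median GC content was 51.7% for the set and 49.2% for all genes tested. A cause of the order was not tested.

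**Figure D4:**
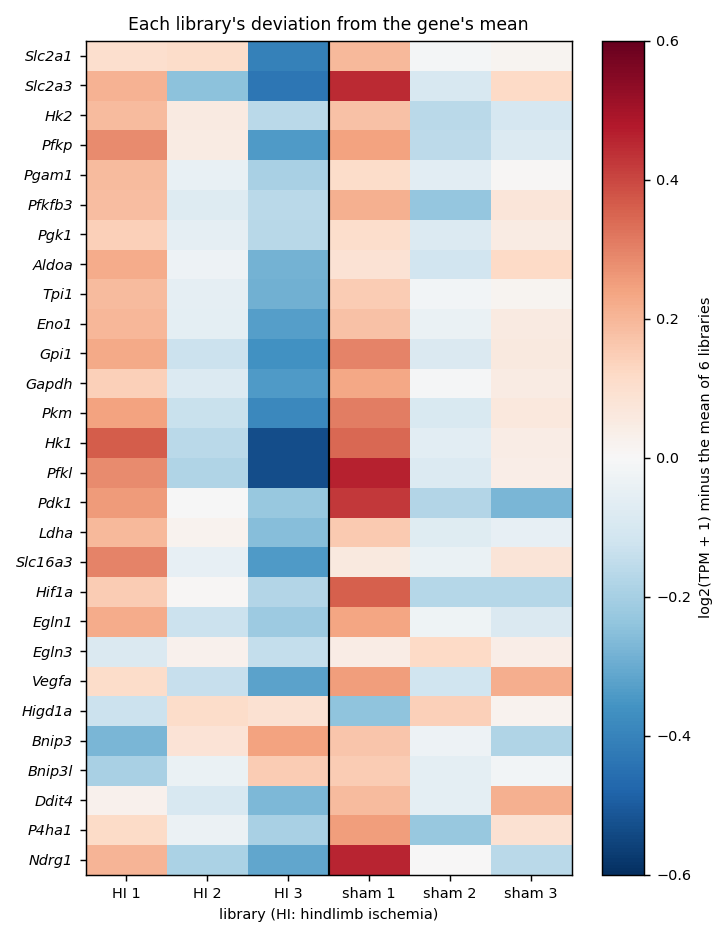
Deviation of each library from the gene's mean over 6 libraries, in log2(TPM + 1), for the 28 tested genes (rows, in the order of the plot of fold changes) and 6 libraries (columns, hindlimb ischemia left of the line). Red is above and blue below the mean, and the glycolytic enzymes are red in the first replicate of both groups and blue in hindlimb ischemia replicate 3, with median deviations of 0.20, 0.21 and -0.33.

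Leaving out hindlimb ischemia replicate 1 changed the count of unadjusted calls. Without it, 5 of the 28 genes (17.9%, beside 19.7% of all genes) were at an unadjusted p under 0.05 by limma-trend, all lower after hindlimb ischemia, and 0 passed the adjusted threshold. These were Pfkl with a log2 fold change of -0.50 (SE 0.18, adjusted p 0.198), Slc2a3 with -0.50 (SE 0.21), Hk1 with -0.45 (SE 0.18), Pkm with -0.35 (SE 0.15) and Gpi1 with -0.34 (SE 0.15).

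The abundant enzymes have many near-identical copies in the mouse genome, mostly processed pseudogenes, and the table gives TPM to those copies. A transcript aligned to the gene at 95% identity or more over at least 300 bases was counted as a copy, and 8 of the 31 genes had 77 copies in all. Gapdh had 68, which held 57.7% of the summed TPM after hindlimb ischemia and 57.4% in sham. Eno1 had the copies Gm4735 and Gm5506, with 79.9% of the sum after hindlimb ischemia and 79.6% in sham. For Pgk1 the share in Gm5537 and Pgk1-rs7 was 67.7% after hindlimb ischemia and 67.1% in sham, and for Pgam1 the share in Pgam1-ps2 was 48.6% after hindlimb ischemia and 48.2% in sham. Bnip3l had 63.3% after hindlimb ischemia and 62.0% in sham in Gm10480, and Gpi1 had 29.1% after hindlimb ischemia and 28.02% in sham in Gm1840. Bnip3 had 36.03% after hindlimb ischemia and 39.7% in sham in Gm16439. For Ldha the single copy Gm11814 held 7.76% after hindlimb ischemia and 6.97% in sham. The levels of these 8 genes are uncertain, since reads of near-identical sequence can be split between copies. The shares are of summed TPM, and the extent in reads is not given here. TPM divides by length, and the copies can be much shorter than the gene. The length behind the TPM of Eno1 was 5379 bases, whereas the aligned transcripts of Gm4735 and Gm5506 have 1302 and 1747. With the TPM of copies added, Eno1 had 1498 to 2132 TPM and Gapdh 1051 to 1537 TPM. Both sums were above Pkm, which had 0 copies, in every library. Because the sums join TPM values on unlike lengths, they do not decide the order of levels. Summing each gene with its copies again left 0 of the 28 genes at an unadjusted p under 0.05. Bnip3 then had a log2 fold change of -0.05 instead of 0.03.

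**Figure D5:**
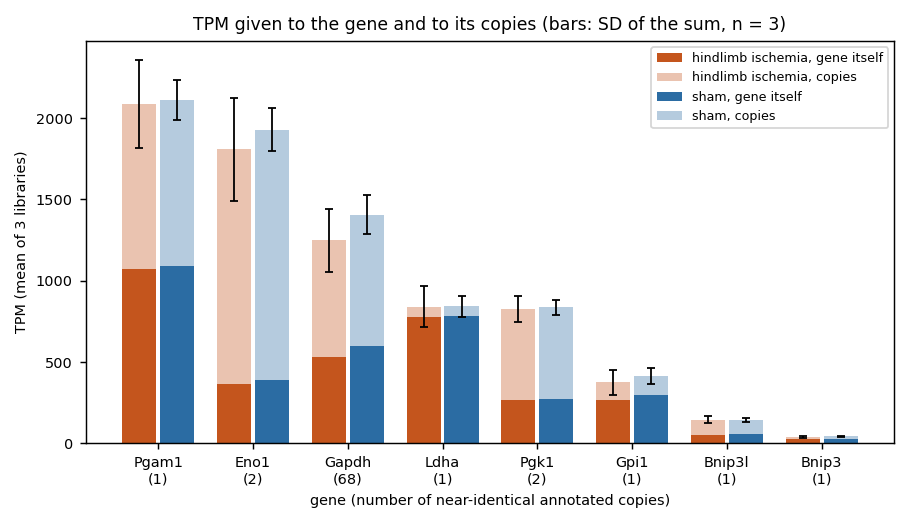
Mean TPM (n = 3 libraries) of the 8 genes with near-identical copies, for the gene itself (dark) and its copies (pale), hindlimb ischemia (orange) left of sham (blue); error bars are the SD of the sum. For Eno1, Pgk1, Bnip3l and Gapdh the copies make up 57.4% to 79.9% of the bar, and the sums of the groups overlap within their SD.

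Other genes of these pathways were read from 4 lists that do not include the set. Of 17 other glycolysis genes tested, 0 were at an unadjusted p under 0.05, with a median log2 fold change of -0.14, beside -0.09 over all genes tested. The 2 with the smallest p were Slc2a8 (-0.37, SE 0.18), a glucose transporter of internal membranes, and Bpgm (-0.30, SE 0.15), which makes bisphosphoglycerate. Of 10 other genes of the HIF system tested, 0 were at an unadjusted p under 0.05, with a median of -0.20. Hif1an, the asparagine hydroxylase that blocks HIF activity, had -0.41 (SE 0.21) and the coactivator gene Crebbp -0.33 (SE 0.21). Epas1 and Hif3a, which encode the other HIF alpha subunits, stayed below 1 TPM in all 6 libraries, with highest values of 0.11 and 0.25 TPM, against 26.4 to 38.7 TPM for Hif1a. Arnt, the partner subunit, ranged from 8.35 to 12.6 TPM after hindlimb ischemia and from 9.46 to 13.03 TPM in sham.

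Of 16 other pyruvate and lactate genes tested, 2 were lower at an unadjusted p under 0.05 by limma-trend (beside 2.95% of all genes) and 0 passed the adjusted threshold. Pcx, the pyruvate carboxylase, had 4.32, 3.38 and 2.75 TPM after hindlimb ischemia and 6.81, 4.31 and 5.65 TPM in sham, a log2 fold change of -0.55 (SE 0.20). Pdk2, a kinase of pyruvate dehydrogenase, had 5.78, 3.08 and 3.69 TPM after hindlimb ischemia and 6.32, 5.27 and 6.66 TPM in sham, a log2 fold change of -0.48 (SE 0.21). The groups overlapped in both genes, and the adjusted p of each was 0.874. Of 26 other HIF targets tested, 1 was higher (beside 0.943% of all genes) and 2 were lower at that p. Tfrc, the transferrin receptor that takes up iron, had 79.3, 94.99 and 88.8 TPM after hindlimb ischemia and 61.3, 41.1 and 45.3 TPM in sham, a log2 fold change of 0.84 (SE 0.17) with an adjusted p of 0.605. The lower ones were Narf (-0.49, SE 0.18) and the heme oxygenase gene Hmox1 (-0.43, SE 0.16), each with an adjusted p of 0.874. Hmox1 is also among the macrophage markers. In Tfrc, Narf and Hmox1, which were named for their small p, the values of the groups did not overlap. That separation was seen in 8.33% of all genes tested (6.68% lower and 1.65% higher). Of the 26 targets, 0 passed the adjusted threshold.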

How the data were processed

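GMPs were sorted into extraction buffer and their total RNA was extracted with the PicoPure kit, per the labels' protocols. TPM values per gene and library were made by the authors and deposited in a table for the whole series, beside the authors' log2 fold change and adjusted p-value, per the file headers. The deposited log2 fold change had a Spearman correlation of -0.91 with the TPM differences over genes above 0 in all libraries, so it is sham over hindlimb ischemia. The genome build named is mm10, per the submitters' processing notes, and the sources used here do not name the aligner, counting tool, annotation or test. A short list of 34 genes was not used, its 6 per-sample columns included.

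Genes reaching 1 TPM in 3 or more libraries were fitted with limma-trend (limma 3.58.1, robust, R 4.3.3) on log2(TPM + 1), with no covariate and Benjamini-Hochberg adjustment over 13787 genes. On the log2(TPM + 1) scale differences of low genes are understated. Reads were recovered from TPM with GENCODE M21 exon lengths: 14448 genes (59.7%) were whole within 0.001 reads, and for 9757 genes a fitted length made them whole, so their reads and the library totals hold only up to a common factor. Gene positions, lengths and GC content come from GENCODE M21 on GRCm38, the assembly of mm10. Copies were found with blastn 2.17.0. GC and length trends were removed per library by loess (span 0.3).

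The genes of the set, the lists and the tests were chosen with earlier results of these data known. Values in each library are given for the 3 highest and 3 lowest log2 fold changes, for Hif1a, Vegfa and Ldha and for isozyme pairs of the set, and, as examples picked with their values known, for Gpi1, Aldoa, Gapdh and Pkm. In the other lists, genes at an unadjusted p under 0.05 or else the 2 with the smallest p are named.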

Additional observations from a re-analysis of the deposited data

How the results depend on the processing

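Under each alternative run, 0 genes of the set passed an adjusted p of 0.05, and the lowest adjusted p of a singly described gene was 0.198. The median log2 fold change of the set was -0.200 without hindlimb ischemia replicate 1, 0.007 without hindlimb ischemia replicate 3, and -0.040, -0.133 and -0.116 without sham replicates 1, 2 and 3, beside -0.079 with all libraries. These shifts are within the SD of 0.19 of the per-library medians, but the sign turned without hindlimb ischemia replicate 3. Leaving out 1 library moves a group mean by only part of that library's deviation, so a shift below this SD does not show stability. The Pfkp share was recomputed only with 1 library left out, and it moved by less than 1 SD, with the same limit. Genes past the adjusted threshold numbered 1 for limma without a trend and 0 to 41 with 1 library left out, 41 of them without hindlimb ischemia replicate 1. Genes of the set at an unadjusted p under 0.05 numbered 0 to 5 with 1 library left out and 1 (Hk2) with the GC and length correction. Same-numbered libraries deviated with correlations of 0.389, 0.182 and 0.076, and the other pairs with -0.434 to 0.383. Hindlimb ischemia replicate 3 deviated more closely with sham replicate 2 (0.383) than with sham replicate 3. The labels do not say whether same-numbered libraries were handled together, and with 3 libraries per group these correlations cannot decide it. The replicate block gave 69 genes past the adjusted threshold (17 higher) and 1 gene of the set at an unadjusted p under 0.05 (Pfkl, 3.57% of the set beside 13.7% of all genes), and 2 (Hk2 and Higd1a, 7.14% beside 10.4%) with the GC and length correction.

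The sign of the log2 fold change turned in at least 1 alternative for 12 of the 15 genes, and the cause was not tested. With size factors it was 0.060 for Bnip3l, 0.029 for Egln1, 0.101 for Hif1a, 0.091 for Ldha, 0.035 for P4ha1 and 0.109 for Pfkp. With quantile normalization it was 0.012 for Bnip3l, 0.018 for Egln1, 0.084 for Hif1a, 0.037 for P4ha1 and 0.099 for Pfkp. Limma-voom on recovered reads gave 0.014 for Bnip3l, 0.057 for Hif1a, 0.044 for Ldha and 0.065 for Pfkp. The GC and length correction, with or without the block, gave 0.133 for Egln1, 0.019 for Egln3, 0.048 for Hif1a, 0.007 for Hk1, 0.089 for Ldha, 0.038 for P4ha1, 0.139 for Pfkp and 0.068 for Slc2a1. Bnip3 had -0.052 when summed with its copy, an alternative chosen after seeing the data. With 1 library left out, the value ran from -0.082 to 0.177 for Bnip3, -0.144 to 0.029 for Bnip3l, -0.214 to 0.015 for Egln1, -0.100 to 0.165 for Hif1a, -0.057 to 0.135 for Higd1a, -0.023 to 0.161 for Hk2, -0.127 to 0.097 for Ldha, -0.208 to 0.030 for P4ha1, -0.146 to 0.166 for Pfkp and -0.218 to 0.040 for Slc2a1. Reads limit Ddit4 and the 3 genes below the filter.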
